A study of Mus musculus with 4 samples.

Results

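Blood vessel walls and the meninges were followed in the developing mouse pontine nucleus through 34 genes of pericytes, vascular smooth muscle and meningeal fibroblasts. The genes were taken by name from a fixed list, and each was found on the array under 1 probe set with a single gene symbol, out of 19938 named genes in all. They were sorted by their known main cell of expression into 7 mural genes (pericytes and smooth muscle), 19 meningeal and fibroblast genes, and 8 genes shared by both kinds of cell. The list and these classes were chosen with earlier results of these data known. Tissue came from ICR mice, an outbred stock. The labels name embryonic day 17.5 (E17.5, a pool of 27 animals) and, after birth, days 1 (P1, 16 animals), 5 (P5, 13 animals) and 14 (P14, 12 animals). Each pool was hybridised to 1 Affymetrix array, so that no age had a replicate and no difference between ages could be tested. The labels give no treatment, genotype or sex, and do not say whether the pia was removed at dissection.

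Pericytes are cells wrapped around brain capillaries, and smooth muscle cells ring the arterioles. Both are called mural cells, are recruited by platelet-derived growth factor B from the endothelium through its receptor PDGFRβ, and help to set vessel tone and the blood-brain barrier. The meninges that cover the brain hold fibroblasts that lay down fibrillar collagens and small proteoglycans and carry transporters that clear solutes from the cerebrospinal fluid. The pontine nucleus lies at the ventral surface of the pons, next to the pia. In a bulk sample of this kind, fewer cells of a type and less RNA per cell cannot be told apart.

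Values are the deposited log2 signals of a probe set, and a difference of 1 on this scale is 2-fold. Where 4 levels of a gene follow each other, they stand in the order of the labels, from E17.5 through P1 and P5 to P14. The level of one gene cannot be set against that of another on this array, so only differences between arrays are compared. A gene passed the level filter when its highest array reached 8.41, the median level of the probe sets with a single symbol. Of the 34 genes 23 passed, among them 6 mural, 13 meningeal and 4 shared genes, as did 10901 of the 19938 named genes. Col3a1, with a highest value of 8.47, lay just inside the filter and Ogn, with 8.13, just outside. Because a gene can pass through the array on which it is high, counts are given over all 34 genes first. A fold is given only where both levels reached 8.41, and below that the size of a difference is inexact. How far different probe sets of a gene disagree, the only error these files allow and called the probe set spread here, was estimated on 645 other genes. Its standard deviation for a difference was 0.12 for P1 against E17.5, 0.18 for P5 against P1, 0.10 for P14 against P1 and 0.15 for P14 against P5. Only probe sets that reached the filter entered it, so for genes under the filter it is a rough guide.

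The arrays labelled P5 and P14 did not follow the order of their ages. Across the 10901 genes past the filter, the E17.5 array had a Pearson's r of 0.909 with P14 and 0.754 with P5; genes are not independent replicates. The 7 named myelin genes all had their highest value on the array labelled P5, where their summed linear signal was 49024, against 2291 at P1 and 5009 on the array labelled P14. The labels are kept as deposited, and only P1 against E17.5 uses neither of these arrays. The comparisons of the later arrays with P1 share the P1 array, so their values are given side by side and are not independent. Transcripts of pontine neurons were present throughout, with Barhl1, a homeobox factor of rhombic lip neurons, between 10.83 and 12.23. Markers of other brain cells also differed between these arrays. Against P1, the 7 young neuron genes had medians of −2.84 (P5) and −0.74 (P14), the 6 pontine neuron genes −0.99 and −0.24, and the 7 astrocyte genes 1.14 and 0.53. The pontine neuron genes went both ways, with 2 above P1 and 4 below on each later array. Among them Slc17a7, only 8.16 at E17.5, differed from P1 by 3.52 (P5) and 1.98 (P14). The part of these cells in the members' differences was not tested.

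Most mural and meningeal genes differed little between E17.5 and P1 and were higher on both later arrays, the meningeal genes by more. The median difference of the 34 genes was −0.065 for P1 against E17.5, 0.815 for the array labelled P5 against P1 and 0.51 for the array labelled P14 against P1. Over all 19938 genes the same medians were −0.03, −0.03 and 0.02. Between E17.5 and P1 no member of 34 was 2-fold apart in either direction, beside 0.502% of all genes higher and 0.166% lower (0.826% and 0.275% of the genes past the filter). On the array labelled P5, 13 of 34 were at least 2-fold higher than at P1 and none lower, beside 5.52% and 2.43% of all genes. On the array labelled P14, 8 of 34 were at least 2-fold higher than at P1 and none lower, beside 0.823% and 0.0853% of all genes. Among the 23 genes past the filter these counts were 9 higher beside 8.96% for the array labelled P5 and 7 higher beside 1.37% for the array labelled P14, with none lower beside 3.94% and 0.101%. The lowest of the 4 values lay on the P1 array for 18 of the 34 genes, beside 19.5% of all genes, and on the array labelled P5 for 3, beside 41.3%. The highest lay on the array labelled P5 for 22 of 34, beside 31.5%, and for 12 of the 23 past the filter, beside 39.9%. It lay on the E17.5 array for 3 genes (Col5a1, Fbln1 and Serping1), beside 32.5% of all genes and 38.0% of those past the filter.

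**Figure D1:**
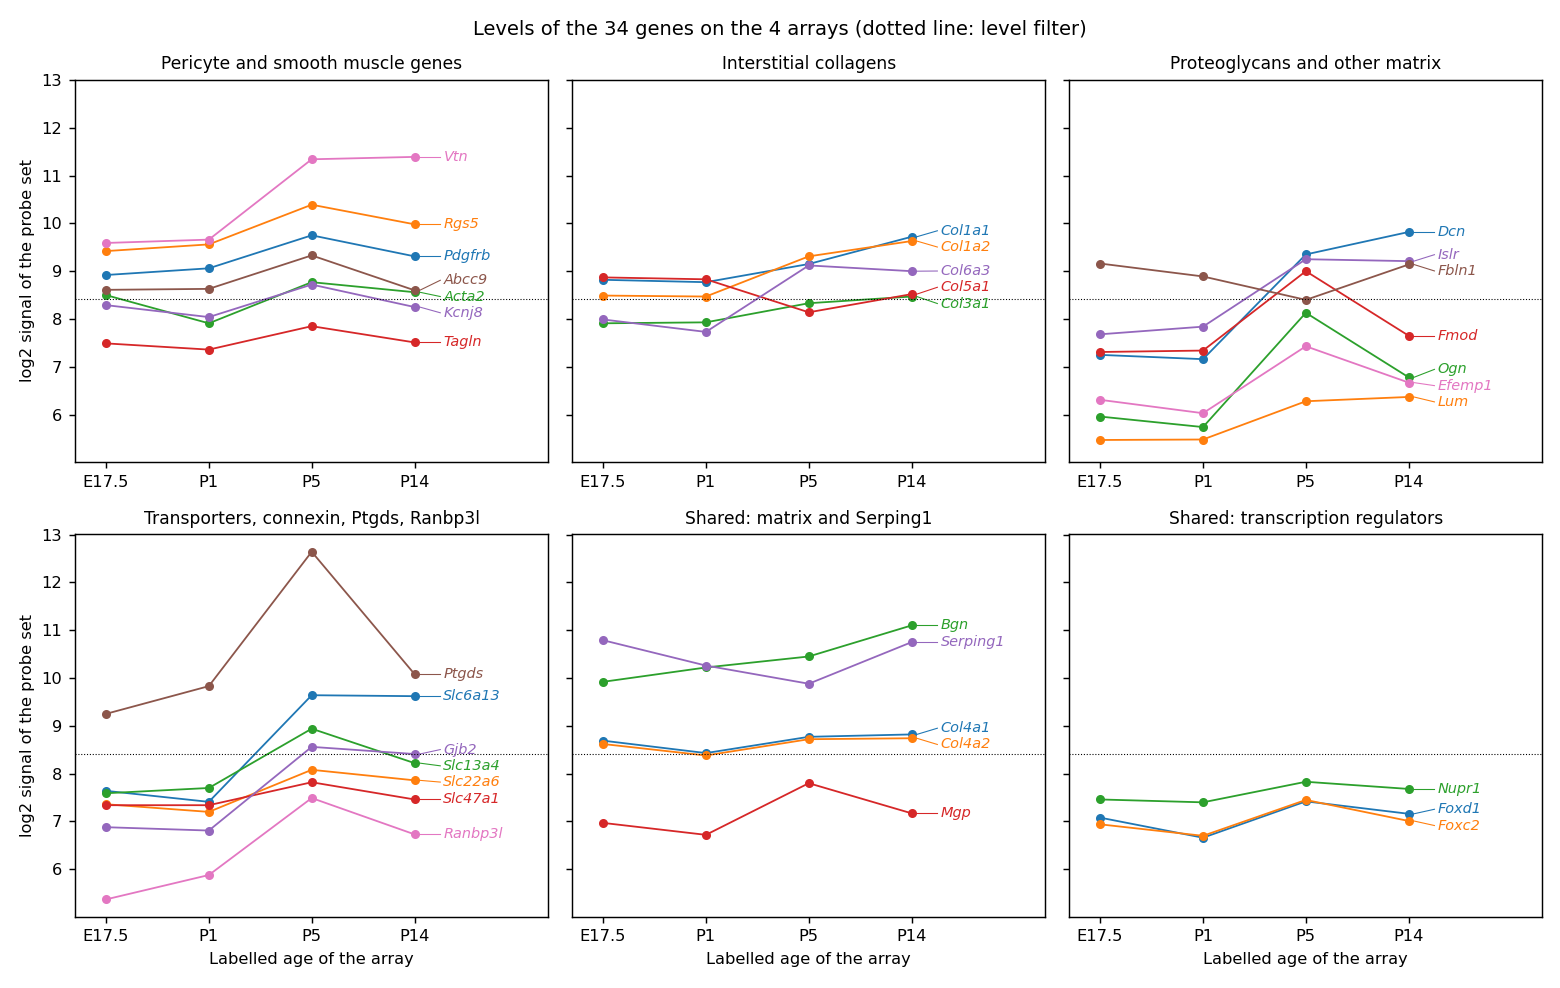
Levels (log2 signal of the probe set, vertical axis) of the 34 genes on the arrays labelled E17.5, P1, P5 and P14 (horizontal axis), in 6 panels by role. Each point is 1 array, lines only join the points of a gene, and the dotted line marks the level filter of 8.41; most genes lie near their lowest value at E17.5 and P1, and Ptgds reaches 12.64 on the array labelled P5.

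Among the pericyte genes, the receptor, the signalling regulator and the channel subunits differed by less than 2-fold, while vitronectin differed by more. Pdgfrb, the receptor through which pericytes are recruited, stood at 8.92, 9.06, 9.75 and 9.31. Rgs5, a regulator of G protein signalling in pericytes, stood at 9.42, 9.56, 10.39 and 9.98. Both genes were thus alike on the 2 early arrays, highest on the array labelled P5 and between these levels on the array labelled P14. Against P1 the array labelled P5 was 1.61-fold higher for Pdgfrb and 1.78-fold higher for Rgs5.

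Vtn, which encodes the adhesive protein vitronectin and is made by pericytes in the brain, stood at 9.59, 9.66, 11.34 and 11.39. It was the sole mural gene at least 2-fold apart on any pair of arrays compared. It exceeded P1 by 3.2-fold on the array labelled P5 and by 3.32-fold on the one labelled P14, where its difference of 1.73 was the 15th highest among the 10901 genes. The 2 later arrays differed by 0.05, less than the spread between probe sets.

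Kcnj8 and Abcc9 encode the pore (Kir6.1) and the regulatory subunit (SUR2) of the ATP-sensitive potassium channel of mural cells. They are neighbours on chromosome 6, with 0 protein-coding genes between them in the RefSeq annotation of GRCm38.p6. Kcnj8 stood at 8.29, 8.04, 8.72 and 8.25, and Abcc9 at 8.61, 8.63, 9.33 and 8.6. Both were highest on the array labelled P5, by 0.68 and 0.70 against P1, and their differences from P1 lay within 0.27 of each other on every array. On the array labelled P14 Abcc9 lay 0.03 below P1, the only mural gene below its P1 value there.

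Acta2 and Tagln, the smooth muscle actin and the actin-binding protein transgelin of contractile cells, had their lowest values at P1. Acta2 stood at 8.50, 7.91, 8.77 and 8.56, and its difference of −0.59 between E17.5 and P1 was the most negative of all 34 genes. Tagln stood at 7.49, 7.36, 7.85 and 7.51, under the level filter on every array. Contractile genes depend on serum response factor, which binds a sequence called the CArG box, which reads CC, then 6 bases that are A or T, then GG. With at most 1 G or C allowed among these 6, either strand being covered since the pattern reads the same on both, 9.98% of 32851 RefSeq promoter windows (250 bases before to 50 bases after a start) held a match. A window was listed for 25 of the 34 genes and 4 of these held a match, namely Acta2, Col1a2, Col6a3 and Slc13a4. Tagln was not among them, but 9 of the 34 genes had no window, and a match outside a window is not counted. Absence from the 4 therefore does not show that a gene lacks a CArG box. The members are counted by gene and the shares by window, and the 32851 windows belong to 27025 genes, so these are unlike units. Acta2 held 2, found in 0.822% of windows, and with no G or C allowed no member held a match, beside 1.63% of windows. The Acta2 window is shown because it carries both matches, which begin 84 and 34 bases before the start and are in capitals (RefSeq, GRCm38.p6, chr19:34255324-34255623, minus strand).
Acta2: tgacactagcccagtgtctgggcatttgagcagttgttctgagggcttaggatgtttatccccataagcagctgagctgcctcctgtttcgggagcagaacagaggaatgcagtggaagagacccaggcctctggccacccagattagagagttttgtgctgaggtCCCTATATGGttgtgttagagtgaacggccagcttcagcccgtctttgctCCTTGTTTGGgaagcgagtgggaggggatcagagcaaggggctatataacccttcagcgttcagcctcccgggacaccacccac

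The interstitial collagens divided, with the type I chains highest on the array labelled P14 and Col5a1 lower on both later arrays. Col1a1 and Col1a2 encode the chains of type I collagen, the main fibre of the meninges. Col1a1 stood at 8.82, 8.77, 9.15 and 9.72. Col1a2 stood at 8.49, 8.47, 9.31 and 9.63. Both chains were nearly level before and around birth. On the array labelled P14 they were 1.93-fold and 2.23-fold above P1 (0.95 and 1.16 on the log2 scale), and that array exceeded the one labelled P5 by 0.57 and 0.32, more than the probe set spread of 0.15.

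Col3a1, the type III chain of pliable connective tissue, stood at 7.91, 7.93, 8.33 and 8.47, also highest on the array labelled P14. Col6a3, a chain of the beaded-filament type VI collagen, stood at 7.99, 7.73, 9.12 and 9.0, and its 2 later values differed by less than the probe set spread. Col5a1, a chain of type V collagen that regulates fibril diameter, stood at 8.87, 8.83, 8.14 and 8.52. It was thus highest on the early arrays and lowest on the array labelled P5, opposite to the other 4 interstitial collagens.

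Decorin had the highest difference of any gene past the filter between P1 and the array labelled P14. Dcn, a small leucine-rich proteoglycan that binds collagen fibrils, stood at 7.25, 7.16, 9.35 and 9.82. Its difference of 2.66 ranked first among the 10901 genes past the filter, although its P1 level lay under 8.41 and the size and rank are therefore inexact. Dcn passed the filter only on the later arrays, where it was high. The highest difference over all 19938 named genes, without the filter, was also 2.66. Lum encodes the related proteoglycan lumican and is the next protein-coding gene to Dcn on chromosome 10. Lum stood at 5.47, 5.48, 6.28 and 6.37, under the filter throughout. It was also highest on the array labelled P14, but only by 0.09 over the array labelled P5, less than the probe set spread. The differences of Dcn and Lum from P1 lay up to 1.77 apart.

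The other 2 leucine-rich proteoglycans had a different course. Fmod (fibromodulin) stood at 7.31, 7.34, 9.0 and 7.65, and Ogn (osteoglycin or mimecan) at 5.96, 5.74, 8.13 and 6.78. Both had a peak on the array labelled P5 and lay 1.35 lower on the array labelled P14. Dcn and Lum did not share this, with differences of 0.47 and 0.09 between these arrays.

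The other matrix genes each took a course of their own. Islr, a secreted leucine-rich protein of mesenchymal cells, stood at 7.68, 7.84, 9.25 and 9.21, with both later arrays high and alike. Fbln1, the elastic fibre and basement membrane protein fibulin-1, stood at 9.16, 8.89, 8.40 and 9.14 and was lowest on the array labelled P5. Efemp1, or fibulin-3, stood at 6.31, 6.03, 7.43 and 6.67, under the filter on every array and highest on the array labelled P5.

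Transporter genes of the meninges were lower before birth and at P1 than on the later arrays. Slc6a13, the GABA and taurine transporter GAT2 of meningeal fibroblasts, stood at 7.64, 7.41, 9.64 and 9.62. Its difference of 2.21 between P1 and the array labelled P14 was the 3rd highest of 10901, again from a level under 8.41. Gjb2, a connexin that forms gap junctions in the meninges, stood at 6.88, 6.81, 8.56 and 8.41, and its difference of 1.6 ranked 20th, also from a level under 8.41. Slc6a13 and Gjb2 passed the filter only on the later arrays, where they were high. Their ranks among the genes past it are therefore inexact and not independent of the filter. These 2 genes had nearly the same level on both later arrays.

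The other transporters were highest on the array labelled P5. Slc13a4, a sulfate carrier, stood at 7.59, 7.70, 8.94 and 8.22. Slc22a6, the organic anion transporter OAT1, stood at 7.36, 7.2, 8.08 and 7.86, and Slc47a1, the multidrug and toxin extrusion protein MATE1, at 7.34, 7.34, 7.82 and 7.46, both under the filter on every array. Against P1 all 5 genes of this role were higher on both later arrays, by 0.48 to 2.23 on the array labelled P5 and by 0.12 to 2.21 on that labelled P14.

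Ptgds encodes the prostaglandin D synthase of the leptomeninges, which oligodendrocytes and the choroid plexus also make. It stood at 9.25, 9.83, 12.64 and 10.08. The array labelled P5 was 7.01-fold above P1 and 5.90-fold above the array labelled P14, and the latter was 1.19-fold above P1. The myelin genes were highest on the same array, Mog at 7.18, 7.39, 12.91 and 8.27, and their part in the Ptgds difference was not tested. Ranbp3l, a nuclear transport factor of the RanBP3 family, stood at 5.37, 5.88, 7.49 and 6.73, under the filter on every array.

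The basement membrane collagens had the smallest ranges of the 34 genes over the 4 arrays and varied as a pair. Col4a1 and Col4a2 encode the chains of the type IV collagen that lies under endothelium, pericytes and pia. Col4a1 stood at 8.69, 8.43, 8.77 and 8.82, and Col4a2 at 8.62, 8.38, 8.72 and 8.74. Both were lowest at P1, and their differences from P1 lay within 0.03 of each other on every array, closer than the probe set spread. The genes are neighbours on chromosome 8, read in opposite directions from opposite strands. Their annotated starts lie 21 bases apart, each inside the other gene, so that the beginnings of the genes overlap. Their windows of 300 bases share 78 bases, which include these overlapping beginnings. Windows of different genes on opposite strands overlapped for 11.9% of 27025 genes with a window, and for 4 of the 25 members with one. The pair is shown because it varied together, with the shared bases in capitals, which are each other's reverse complement (RefSeq, GRCm38.p6, Col4a1 at chr8:11312777-11313076 on the minus strand and Col4a2 at chr8:11312555-11312854 on the plus strand).
Col4a1: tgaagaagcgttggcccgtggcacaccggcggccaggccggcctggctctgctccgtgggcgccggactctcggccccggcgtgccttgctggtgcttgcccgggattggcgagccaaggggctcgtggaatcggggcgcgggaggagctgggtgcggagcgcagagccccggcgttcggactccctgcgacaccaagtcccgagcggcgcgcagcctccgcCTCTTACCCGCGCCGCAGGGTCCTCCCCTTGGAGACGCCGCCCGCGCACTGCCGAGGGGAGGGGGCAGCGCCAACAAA
Col4a2: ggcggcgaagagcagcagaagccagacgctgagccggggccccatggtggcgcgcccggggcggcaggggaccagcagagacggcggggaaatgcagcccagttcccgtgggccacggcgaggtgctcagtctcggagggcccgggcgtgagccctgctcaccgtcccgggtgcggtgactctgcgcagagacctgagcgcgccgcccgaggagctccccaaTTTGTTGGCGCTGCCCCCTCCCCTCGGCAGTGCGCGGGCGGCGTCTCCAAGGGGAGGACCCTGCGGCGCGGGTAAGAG

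The remaining shared genes split between the later arrays. Bgn, the proteoglycan biglycan of vessel walls and fibroblasts, stood at 9.92, 10.22, 10.45 and 11.10, and was 1.84-fold above P1 on the array labelled P14. Serping1, the C1 complement inhibitor, stood at 10.79, 10.26, 9.88 and 10.75, lowest on the array labelled P5. Mgp, the matrix Gla protein that keeps vessel walls from calcifying, stood at 6.97, 6.72, 7.80 and 7.17. The transcription factors Foxc2 and Foxd1 of meningeal and mural progenitors lay between 6.66 and 7.45, and Nupr1, a stress-responsive chromatin protein, between 7.40 and 7.83. All 4 of these low genes lay under the filter on every array, were lowest at P1 and were highest on the array labelled P5.

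Set side by side, the mural and the meningeal genes differed little around birth and more later. Since the classes were chosen with earlier results of these data known, this contrast is a description only. Over all 7 and all 19 genes, the median difference between E17.5 and P1 was 0.02 for mural and −0.04 for meningeal genes. For the array labelled P5 against P1 it was 0.70 and 1.39. There 1 of 7 mural and 11 of 19 meningeal genes were at least 2-fold higher, beside 5.52% of all genes. For the array labelled P14 against P1 it was 0.25 and 0.85, with 1 of 7 and 7 of 19 at least 2-fold higher, beside 0.823% of all genes. The classes overlapped in each of these comparisons. On the array labelled P5, 14 of 19 meningeal genes lay above the mural median, 5 lay above the highest mural gene, Vtn, and 5 lay below the lowest, Tagln. Among the 6 and 13 genes past the filter, the medians were 0.765 and 1.39 for the array labelled P5 against P1 and 0.335 and 0.95 for the array labelled P14 against P1. With all 8 shared genes counted as meningeal, the medians lay 0.14 apart for P5 and 0.29 apart for P14, so that the gap depends on where these genes are placed. Past the filter, where 4 shared genes count, the gaps became 0.075 and 0.205.

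**Figure D2:**
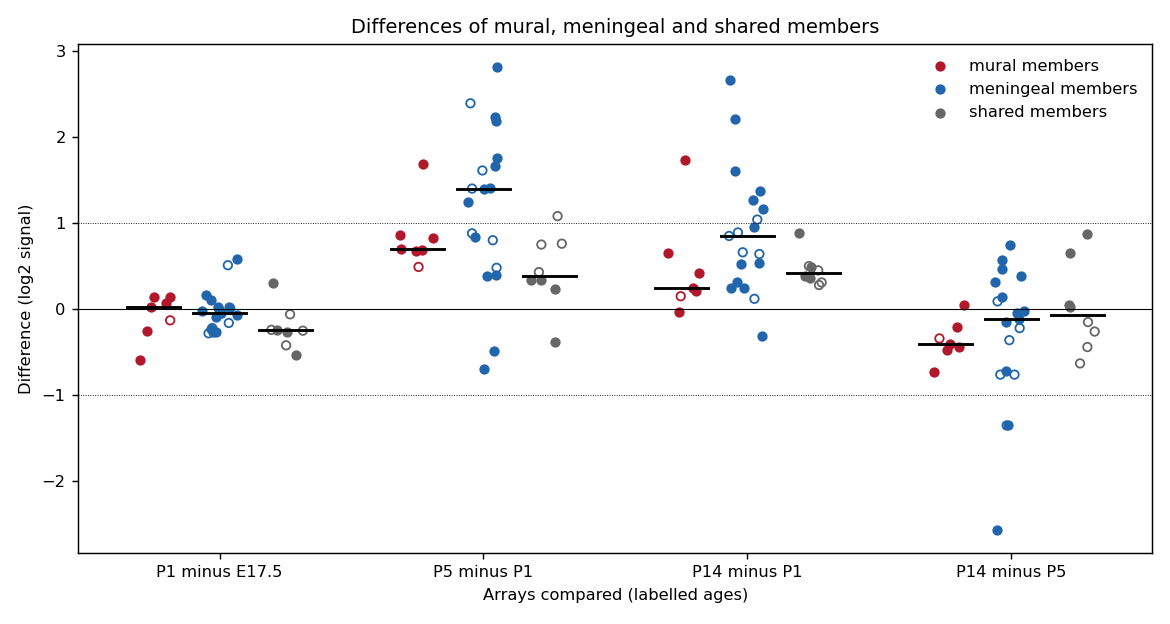
Differences in log2 signal (vertical axis) for the 4 comparisons of arrays (horizontal axis), with a point for each mural, meningeal or shared gene, filled when it passed the level filter and open when it did not. Black bars are medians over all genes of the class, and dotted lines mark 2-fold; the mural and meningeal medians are 0.70 and 1.39 for P5 minus P1 and 0.25 and 0.85 for P14 minus P1.

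Between the 2 later arrays most mural genes were lower on the one labelled P14, while the matrix genes lay on both sides. Over all 34 genes, 12 were higher on the array labelled P14 and 22 lower, with a median of −0.18 beside 0.04 for all genes. Of all 19938 genes 10727 were higher and 8996 lower. Past the filter the shift was not seen, with 11 members higher, 12 lower and a median of −0.02. Beside this stood 4589 higher and 6212 lower of 10901 genes, with a median of −0.07. None of the 34 was at least 2-fold higher, beside 1.30% of all genes and 2.16% of those past the filter. The 3 at least 2-fold lower were Ptgds, Fmod and Ogn, beside 2.75% of all genes and 4.50% of those past the filter. Of the 34 genes 7 were higher on the array labelled P14 by more than the probe set spread of 0.15, beside 36.1% of all genes, and 17 were lower by more than it, beside 30.1%. Past the filter these were 7 and 8 of 23, beside 28.1% and 41.4%. The 7 higher genes were Serping1 (0.87), Fbln1 (0.74), Bgn (0.65), Col1a1 (0.57), Dcn (0.47), Col5a1 (0.38) and Col1a2 (0.32). The 17 lower ones included the matrix genes Fmod, Ogn, Efemp1 and Mgp, and of the 12 interstitial matrix genes 7 lay above 0 and 5 below. Of the 7 mural genes 6 were lower on the array labelled P14, by 0.21 for Acta2 to 0.73 for Abcc9, and Vtn differed by 0.05. All 5 transporter and channel genes of the meninges also lay below 0, by 0.02 to 0.72; for Slc6a13 and for the matrix gene Islr the sign turned under the other scalings of the arrays.

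**Figure D3:**
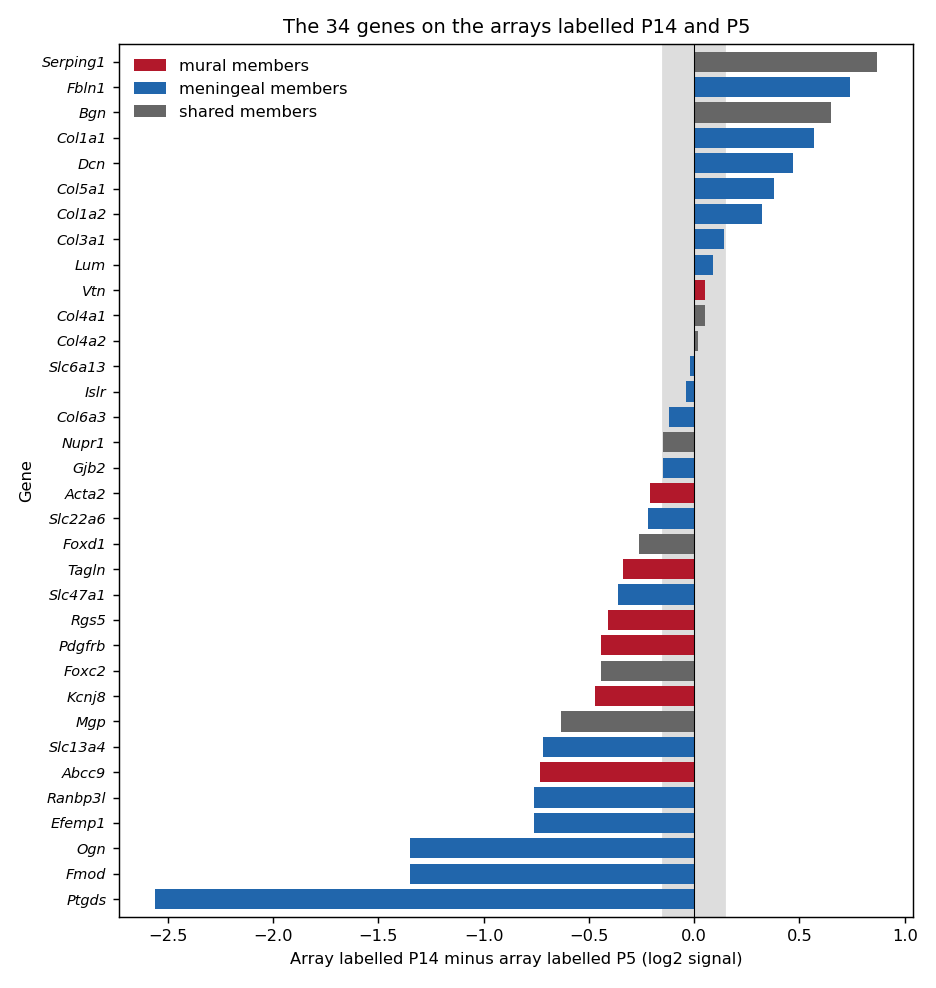
Difference in log2 signal between the arrays labelled P14 and P5 (horizontal axis) for each of the 34 genes, in order of size (vertical axis) and coloured by class. The grey band spans the probe set spread of 0.15 on either side of 0; the bars run from −2.56 for Ptgds to 0.87 for Serping1, with 6 of 7 mural genes below 0 and the 12 interstitial matrix genes split 7 above and 5 below, Fmod and Ogn at −1.35 among the latter.

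Among genes that varied by at least 2-fold, most had an intermediate value on the array labelled P14. Over all 19938 genes 50.9% had a P14 value between P1 and P5. Of the 2440 whose 4 values spanned at least 2-fold, 84.7% did, and 11 of the 15 members with such a range did. Past the filter the share was 86.1% of 2120 genes and 7 of 11 members. Past the filter the 4 exceptions were Vtn, Dcn, Col1a2 and Bgn, all highest on the array labelled P14. The highest value lay on that array for 9 of the 34 genes, beside 21.0% of all genes, and for 8 of the 23 past the filter, beside 11.0%.

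Other mural genes, from a list that holds no member, were mostly higher on the later arrays too. Of 19 listed, 19 were named on the array and 7 passed the filter. Over all 19 the median difference from P1 was 0.39 on the array labelled P5 and 0.16 on that labelled P14. On these arrays 2 and 0 were at least 2-fold higher, beside 5.52% and 0.823% of all genes. Past the filter the medians were 0.81 and 0.15 over the 7, beside 0.765 and 0.335 over the 6 mural members. Mcam, an adhesion molecule of mural and endothelial cells, stood at 9.06, 8.85, 10.35 and 8.97, and Heyl, a Notch target of mural cells, at 8.89, 9.04, 10.06 and 9.19. Notch3, the Notch receptor of mural cells, stood at 8.94, 9.36, 9.19 and 9.45, the only one of the 7 below its P1 value on the array labelled P5.

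Further fibroblast and meningeal genes were higher on both later arrays in most cases. Of 20 listed, 19 were named and 8 passed the filter. Over the 19 the median difference from P1 was 0.53 on the array labelled P5 and 0.51 on that labelled P14. On these arrays 5 and 3 were at least 2-fold higher, beside 5.52% and 0.823% of all genes. Past the filter the medians were 0.495 and 0.485 over the 8, beside 1.39 and 0.95 over the 13 meningeal members. On the array labelled P5 the other mural genes thus had the higher median past the filter, 0.81, but the lower over all named genes, 0.39. Igf2, the insulin-like growth factor made by meninges and vessels, stood at 9.97, 9.65, 10.85 and 11.57, highest on the array labelled P14. Thbs2, the matrix glycoprotein thrombospondin-2, stood at 7.50, 7.97, 9.04 and 8.98. In the opposite direction, Col12a1, a fibril-associated collagen, stood at 8.44, 9.20, 8.75 and 9.03.

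Genes for the synthesis and crosslinking of collagen had lower medians than the 5 interstitial collagens, with the larger gap on the array labelled P14. The collagen medians against P1 were 0.40 (P5) and 0.95 (P14). Of 16 listed, 13 were named and 8 passed the filter. Over the 13 the median difference from P1 was 0.13 on the array labelled P5 and 0.22 on that labelled P14. On these arrays 1 and 0 were at least 2-fold higher, beside 5.52% and 0.823% of all genes. Past the filter the medians were 0.245 and 0.23 over the 8. Pcolce, the enhancer of procollagen cleavage, stood at 7.96, 8.03, 8.97 and 8.97, and Plod1, a lysyl hydroxylase, at 9.43, 9.51, 11.08 and 9.98. Crtap, a subunit of the collagen prolyl 3-hydroxylase complex, stood at 8.44, 8.86, 8.73 and 9.08.

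Signals that recruit pericytes mostly had higher values on the later arrays than at P1. None of the 12 was at least 2-fold apart in any of the 4 comparisons, beside at most 5.52% of all genes in either direction. With only 12 genes, a count of 0 lies near such shares. The median difference from P1 was 0.345 on the array labelled P5 and 0.30 on that labelled P14. Pdgfb, the ligand of Pdgfrb, stood at 8.93, 9.19, 9.93 and 9.93. S1pr1, the sphingosine 1-phosphate receptor, stood at 9.04, 9.98, 10.89 and 10.27, whereas Tgfbr1, a receptor of transforming growth factor β, was highest at E17.5, at 10.07, 9.60, 9.48 and 9.35. P1 minus E17.5 was 0.94 for S1pr1 and −0.95 for Smad3 of the same list, both just under 2-fold.

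Markers of other cells of the vessels and the brain surface moved to different degrees beside the members. All 11 named endothelial genes of 12 listed were above P1 on both later arrays, with medians of 0.56 (P5) and 0.30 (P14). The mural medians were 0.70 and 0.25. The summed linear signal of the endothelial genes was 7510, 7049, 10722 and 8530 in the order E17.5, P1, P5 and P14. All 6 macrophage genes of the brain borders were highest on the array labelled P14, with sums of 523, 549, 790 and 945, although none reached the filter on any array.

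Markers of choroid plexus, skeletal muscle and cartilage had small median differences from P1, although single genes went further. The 8 named choroid plexus genes of 9 listed had sums of 935, 943, 1040 and 973, and Ttr, the defining transthyretin gene, lay between 5.93 and 6.59. Kcnj13, a potassium channel of the choroid plexus, stood at 6.85, 6.85, 8.39 and 6.95, while P5 minus P1 was −0.66 for Ttr, −0.63 for Folr1 and −0.41 for Otx2, sizes that are inexact at these levels. Kcnj13, Folr1 and Otx2 were chosen after their values were seen. The median differences from P1 were −0.11 (P5) and 0.095 (P14) for choroid plexus, −0.07 and 0.04 for skeletal muscle, and −0.05 and 0.22 for cartilage and bone. The 7 skeletal muscle genes had sums of 1354, 1353, 1284 and 1364, and the 7 named cartilage and bone genes of 8 listed had sums of 913, 915, 983 and 1042. The 4 named Schwann cell genes of 6 listed had sums of 1527, 2069, 4247 and 2968, of which Sox10 and Pmp22, also expressed by oligodendrocytes, made up 1312, 1836, 4015 and 2744. Of 7 red blood cell genes 2 were named, with sums between 557 and 681. The part of these cells was likewise not tested.

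**Figure D4:**
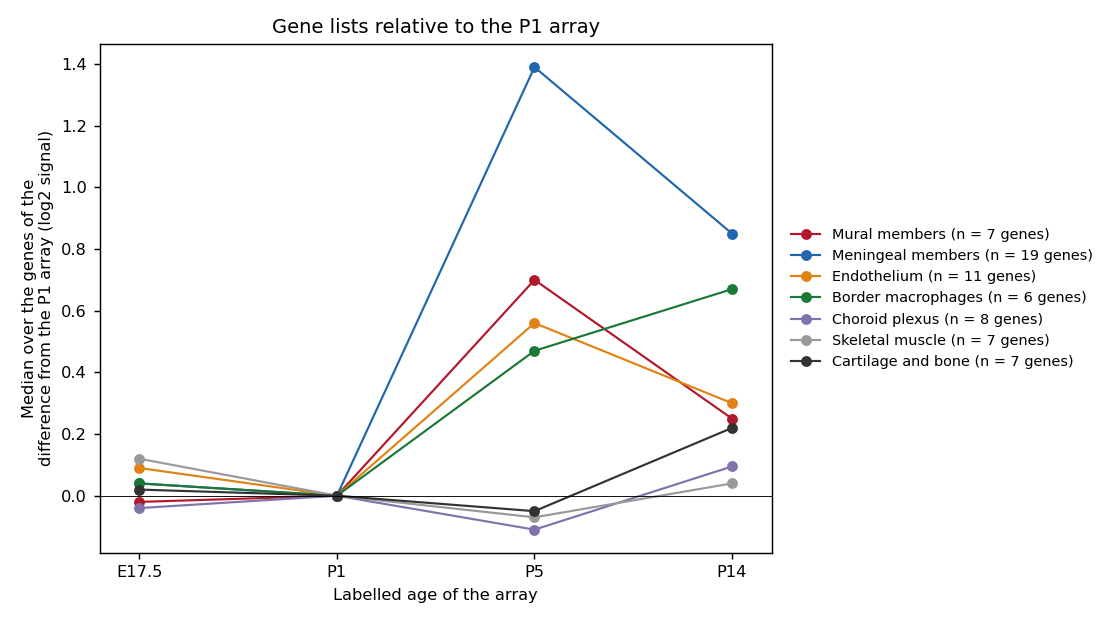
Median over the genes of a list of the difference in log2 signal from the P1 array (vertical axis) on each array (horizontal axis), for mural and meningeal genes and 5 lists of other cells. Each point is a median over all named genes of the list; on the array labelled P14 the meningeal and border macrophage lists lie highest, at 0.85 and 0.67, and the mural and endothelial lists at 0.25 and 0.30.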

How the data were processed

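RNA of 4 pooled samples, 1 for each labelled age, was measured on 1 Affymetrix array each. The authors deposited 1 log2 signal for each probe set and array, computed in Affymetrix Expression Console per the submitters' processing notes. Its version and its summary and normalisation methods: not given in the sources used here. That the scale is log2 was inferred from the values, 1.84 to 14.72. Array medians lay between 7.89 and 7.94.

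Of 35556 probe sets, the platform's gene table named 23410, 21789 with 1 symbol and 1621 with several; only the former were used, and 12146 were unnamed. For each gene the probe set of highest 4-array mean was kept. Differences were taken between deposited values without rescaling, with python 3.11.15 and pandas 2.3.3, and were counted from 1 log2 unit. No test was possible with 1 array per age, and the number of arrays limits the precision. The calculation was checked on simulated data. Every member was described; of other lists, up to 2 genes at either end of a comparison were named. The members, classes and lists were chosen with earlier results of these data known. Alternatives covered the probe set, the level filter, the scaling, the size threshold and the classes.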

Additional observations from a re-analysis of the deposited data

How the results depend on the processing

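Of 186 recomputed counts and medians, 152 stayed within 1.5 times the count or within the probe set spread. Counts have no sign, and of the medians among these 152 a sign changed in 4 cases. All 4 were the meningeal median for P14 against P5, −0.02 as reported. It was 0.05 with centring, 0.055 with quantile normalisation, 0.05 with shared genes as meningeal and 0.06 without Ptgds. Part of the 152 was fixed in advance. All 34 members had 1 probe set, so the alternatives for the probe set could not change any value. Counting the shared genes in a class likewise left the median of the other class as it was. Centring the arrays moved the median of all genes for P5 against P1 by −0.12, and neither this nor quantile normalisation moved any of the counts and medians past these limits, though Mgp (P5 against P1) and Ogn (P14 against P1) fell under 2-fold with centring. No paired analysis was possible because each age had 1 array. The spread between pools was not measured, and no bound on it can be given.

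The filter and the threshold changed values most, by construction. The stricter filter of 9.91 left 5 members, of which Ptgds was the sole meningeal gene. Under it the mural minus meningeal median reversed for P14 against P1, to 0.825 from −0.615, and for P14 against P5, to 2.38 from −0.405. It became −0.475 for P1 against E17.5 and −1.555 for P5 against P1. The meningeal medians were then 0.58, 2.81, 0.25 and −2.56 in the order P1 against E17.5, P5 against P1, P14 against P1 and P14 against P5, and the mural medians 1.255, 1.075 and −0.18 in the last 3. The counts at least 2-fold higher became 2 (P5 against P1) and 1 (P14 against P1), the count lower became 1 for P14 against P5, and 1 member lay between P1 and P5. A threshold of 0.58 (1.5-fold) counted 1 higher and 1 lower for P1 against E17.5, 15 and 1 for P5 against P1, and 3 and 4 for P14 against P5.

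With the 4 shared genes past the filter as mural, the mural median was −0.11 for P1 against E17.5 and −0.095 for P14 against P5, and the gap −0.07 and −0.075. With them as meningeal, the meningeal median was 0.84 (P5 against P1) and 0.54 (P14 against P1), and the gap −0.075 and −0.205. Without Ptgds the meningeal median for P14 against P1 was 1.055 and the gap −0.72. Without the level filter 11 members lay between P1 and P5. A filter on the 2 arrays compared, chosen after seeing the data, gave 1.16 and −0.74 for P14 against P1.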
